A study of Mus musculus with 121 samples.

Results

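Pappa, Pappa2, Stc1, Stc2, Igfbp4 and Igfbp5 were followed in immortalized ear fibroblasts of the Per2::Luc mouse line during the day after cyclic glucose and insulin treatment. These are 6 of the 31053 genes listed in the count tables. They were chosen by name, as the metalloproteinases of the PAPP-A family, their stanniocalcin inhibitors and their main binding protein substrates, on their CPM (a gene's share of the counted reads of a library, scaled to 1000000) by treatment and collection, so these values are given as a description, and where calls of tests run over all genes are given, nothing is read from them. Of the 6 genes, 5 passed the limit of at least 1 CPM in at least 3 libraries that left 13292 genes for testing, and Pappa2 did not pass. All cells carried the PER2::LUC sv knock-in reporter, came from 1 cell line at passage 25, and differed in the media given over 3 cycles of 24 h. HL cells received the high glucose-insulin medium for 12 h and then the low one for 12 h, LH cells received the same media in the opposite order, and HH cells received the high medium in both phases. RNA was collected after the cycles, in the free-running stage, at 6 collections 4 h apart, and sequenced from the 3′ end (3′DGE). Hours are counted from the first collection in steps of 4 h, by the collection number. The clock hours in the labels were not used, because LH differs from HL and HH at collections 3 and 4. They also give 12 h for both collections 2 and 5, so the labels do not bear out the 4 h spacing. All courses and cosines rest on that spacing. The labels do not say whether replicates were separate cultures, while the paper states that N in its legends counts biological replicates unless otherwise indicated. The p-values given here measure the spread between these libraries.

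Insulin-like growth factors reach their receptor only when they are released from the binding proteins that hold them outside the cell. Pregnancy-associated plasma protein A, the product of Pappa, is a secreted metalloproteinase that cuts IGFBP4 and IGFBP5, and its relative PAPP-A2 cuts IGFBP5. Stanniocalcin 1 and stanniocalcin 2 are secreted glycoproteins that bind these proteases and block them. Fibroblasts are a classical source of both the protease and its substrate IGFBP4, and the balance between protease, inhibitor and substrate sets how much free growth factor is available near the cell surface.

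The genes lie apart from each other in the mouse genome (GRCm38). Pappa is at chr4:65124174-65357509 on the plus strand, Pappa2 at chr1:158711727-158980490 on the minus strand, Stc1 at chr14:69029238-69041804 on the plus strand and Stc2 at chr11:31357307-31370074 on the minus strand. Igfbp4 is at chr11:99041244-99054392 on the plus strand and Igfbp5 at chr1:72857932-72874884 on the minus strand. A lincRNA on the same strand, 1600012P17Rik, overlaps Pappa2 and had 0 CPM in all libraries, and the antisense gene Gm41192 overlaps Stc1 away from its 3′ end and reached at most 0.495 CPM. The promoters of Stc2, Igfbp4 and Igfbp5 are shown because the libraries of Stc2 in HH did not overlap between the first and the last collection and because both substrates are cut by the same protease but were counted at very different levels. The sequences are RefSeq promoters of GRCm38.p6, from 250 bases before to 50 bases after the start site, written 5′ to 3′ on the strand of the gene, with the letters that match a searched motif in capitals. The windows are chr11:31370012-31370311 (minus) for Stc2, chr11:99040994-99041293 (plus) for Igfbp4 and chr1:72874816-72875115 (minus) for Igfbp5.
Stc2: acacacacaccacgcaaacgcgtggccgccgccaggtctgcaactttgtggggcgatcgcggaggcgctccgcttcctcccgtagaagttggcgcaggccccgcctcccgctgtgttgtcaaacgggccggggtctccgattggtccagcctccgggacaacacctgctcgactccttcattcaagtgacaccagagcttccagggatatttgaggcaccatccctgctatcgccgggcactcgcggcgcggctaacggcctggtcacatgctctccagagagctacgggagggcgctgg
Igfbp4: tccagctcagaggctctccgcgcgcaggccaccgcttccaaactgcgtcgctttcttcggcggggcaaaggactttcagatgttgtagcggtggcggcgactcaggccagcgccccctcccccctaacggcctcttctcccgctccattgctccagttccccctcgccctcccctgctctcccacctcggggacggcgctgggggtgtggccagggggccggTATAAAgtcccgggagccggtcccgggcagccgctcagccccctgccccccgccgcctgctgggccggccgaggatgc
Igfbp5: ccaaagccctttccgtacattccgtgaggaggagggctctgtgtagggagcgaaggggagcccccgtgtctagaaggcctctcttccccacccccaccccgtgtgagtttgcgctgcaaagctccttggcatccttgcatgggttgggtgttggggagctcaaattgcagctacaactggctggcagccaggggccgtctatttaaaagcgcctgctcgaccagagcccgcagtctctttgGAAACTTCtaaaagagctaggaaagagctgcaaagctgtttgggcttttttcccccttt

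These windows were searched on both strands for the E-box CACGTG, the hypoxia response core ACGTG (contained in the E-box), the FOXO motif GTAAACA, the C/EBP-ATF composite TGATGNAA, heat shock half-sites GAANNTTC and the TATA box TATAAA. The promoter of Igfbp4 holds TATAAA 28 bases before the start site, a match found in 13.6% of 32851 mouse promoters. The promoter of Igfbp5 holds the half-sites GAAACTTC 9 bases before the start site, a pattern found in 7.86% of promoters. No match to the 6 motifs was found in the windows of Stc2 and Pappa2, whereas CACGTG is present in 7.15%, ACGTG in 19.6%, GTAAACA in 3.65% and TGATGNAA in 3.97% of promoters. The G and C content was 71.3% for Igfbp4, 64.7% for Stc2, 56.3% for Igfbp5 and 49.7% for Pappa2, against a median of 52.7% over all promoters. A match describes letters in a window and not a bound site. Pappa and Stc1 are named only.

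HL had 21 libraries, LH had 22 and HH had 19, or 62 in all, and each treatment and collection had 2 to 4. Total counts were 104912 in the shallowest library (LH collection 2 replicate 2) and 2136819 to 11619095 in the others. Sample titles gave the groups. In 40 libraries the library number belongs to another group in the read summary of the study (35 libraries) or is not listed there (5 libraries), so values are also given by library numbers, with 57 libraries. The HH libraries have the same names in both. Separately, 6 libraries stood apart, of which 5 are among those 40, by a median correlation to the other libraries below 0.9 or by a sum of 10 heat shock chaperone genes over 2 times the median of 1362 CPM. These were LH collection 2 replicates 1 and 2, HL collection 2 replicate 3, HL collection 5 replicate 2, HL collection 6 replicate 3 and HH collection 6 replicate 3, and results that rest on them are given with and without them. All 10 fibroblast markers had a median of at least 1 CPM, with a sum of 9861 to 38620 CPM. The sums of 5 epithelial and 3 melanocyte markers stayed at or below 4.57 CPM, that of 3 muscle markers at or below 1.87 CPM, and that of 5 immune markers at or below 7.96 CPM except for 124 CPM in the shallowest library. Of the 3 endothelial markers Kdr had a median of 177 CPM, of the 4 chondrocyte markers Sox9 had 513 CPM, and of the 3 adipocyte markers Fabp4 had 6.54 CPM, while no other marker of these lists reached a median of 1 CPM.

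Igfbp4 was the most abundant of the 6 transcripts and Pappa2 the least. Over the 62 libraries, Igfbp4 had a median of 433 CPM (127 to 660), Stc2 of 99.95 CPM (52.6 to 167), Pappa of 37.2 CPM (21.4 to 95.3), Stc1 of 32.7 CPM (20.6 to 609) and Igfbp5 of 7.29 CPM (0 to 16.3). Counting from the 3′ end does not scale with transcript length, and these CPM are set side by side on that basis. Other differences in how well each gene is counted were not tested. The substrate Igfbp4 exceeded the inhibitor Stc2 in 62 of 62 libraries, with a median ratio of 4.38. Stc2 exceeded Pappa in 61 of 62 libraries (median ratio 2.49), and Stc1 exceeded Igfbp5 in 62 of 62 (median ratio 5.51). Pappa exceeded Stc1 in only 39 of 62 libraries, and these neighbours did not differ beyond their spread. In a bulk sample, fewer cells that express a gene and less RNA per cell cannot be told apart.

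The spread between libraries of the same treatment and collection differed widely among the genes. On the log2 scale (CPM + 1) the within-group SD was 0.27 for Stc2, 0.33 for Igfbp4, 0.36 for Pappa, 0.69 for Igfbp5 and 0.98 for Stc1. Without the 6 libraries that stood apart it was 0.15 for Igfbp4 and 0.53 for Stc1. The median count per library was 2390.5 for Igfbp4, 562 for Stc2, 211 for Pappa and 201.5 for Stc1, where counting error is at most 7.04%, but only 41 for Igfbp5, where it is 15.6%. Among 13292 genes the biological coefficient of variation of Stc1, 0.692, lay at the 83.6th percentile. That of Igfbp5 was 0.438, at the 71.7th percentile. That of Pappa (0.221), Stc2 (0.206) and Igfbp4 (0.174) lay below the median gene (0.275).

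Among the proteases, Pappa was counted in every library. In HH it was lowest at the first collection, with 28.5, 33.6, 33.7 and 27.5 CPM in the 4 replicates. It stood at 65.7 and 42.4 CPM at 12 h, and at 47.5, 49.3 and 60.7 CPM at 16 h. None of these later libraries overlapped the first collection, and the means were 30.8 ± 3.3 (SD, n = 4) at 0 h and 52.5 ± 7.2 (SD, n = 3) at 16 h. Collections said not to overlap, here and elsewhere, were picked with the values in view, and no share of all genes is given beside them. A 24 h cosine fitted in edgeR gave Pappa in HH a log2 amplitude of 0.45 ± 0.10 (SE) with a peak at 14.9 h, and 0.46 ± 0.09 without the library that stood apart. In HL by titles the means of Pappa stayed between 30.4 and 35.4 CPM at all collections, and the groups overlapped. In LH by titles the highest mean, 56.4 ± 34 CPM (SD, n = 3) at 4 h, rested on 95.3 CPM in the shallowest library, where Pappa had 10 counts, beside 32.8 and 41.2 CPM in the other replicates. Without the libraries that stood apart, the highest mean in LH was 47.4 ± 2.2 CPM (SD, n = 3) at 0 h.

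**Figure D1:**
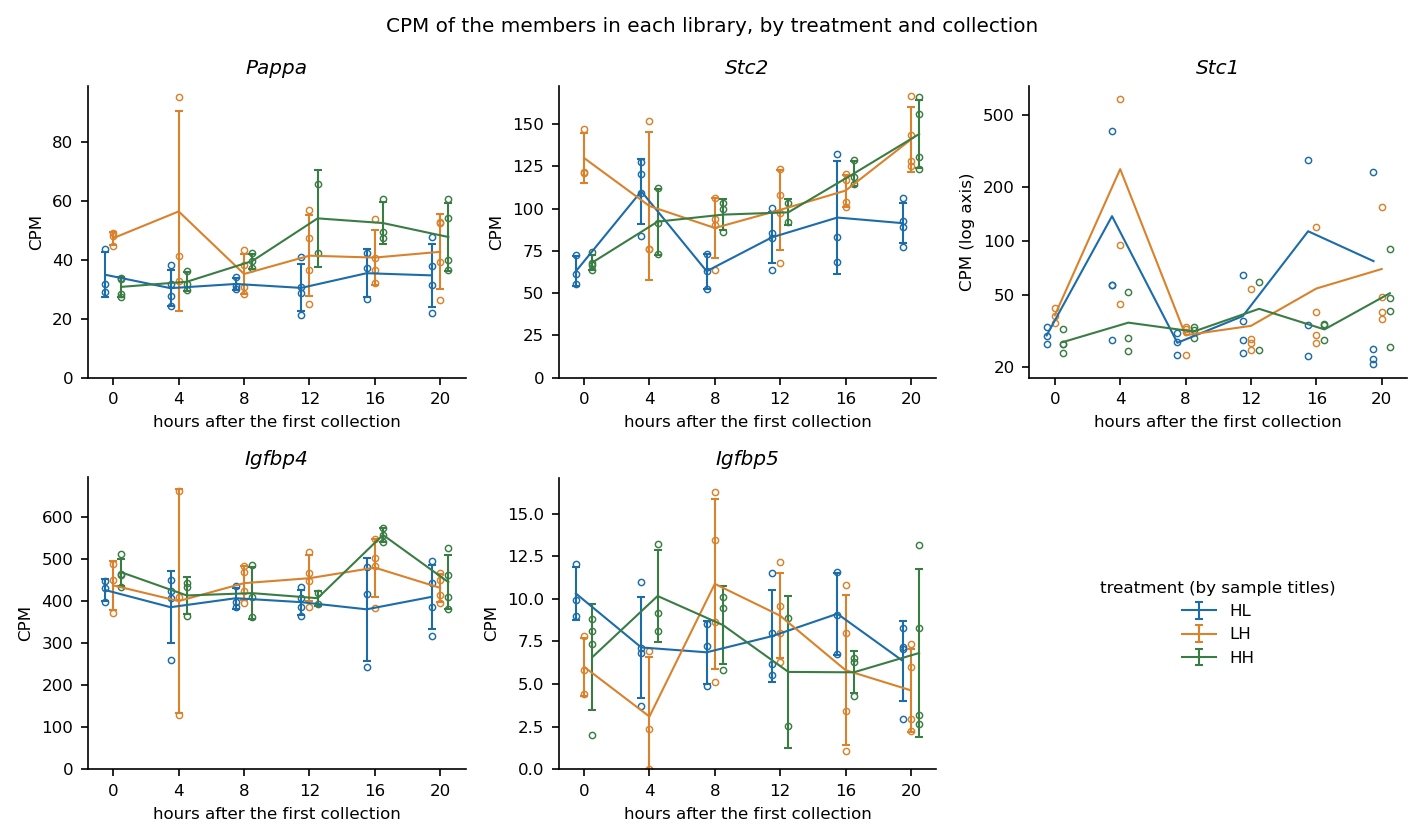
CPM of Pappa, Stc2, Stc1 (log axis), Igfbp4 and Igfbp5 in each library (circles) by hours after the first collection, with lines through the group means by titles and bars of 1 SD (n = 2 to 4, none drawn for Stc1, cut at 0 for Igfbp5). The mean of Stc2 in HH is 68.0 CPM at 0 h and 144 CPM at 20 h, Igfbp4 in HH stands at 540 to 573 CPM at 16 h, and single HL and LH libraries of Stc1 reach 406 and 609 CPM beside others near 30 CPM.

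Pappa2, the protease that prefers IGFBP5, was near the detection limit. It had 54 counts among 358360816 in all libraries together, or 0.151 CPM (exact 95% binomial interval 0.113 to 0.197, counting error only), and at least 1 count in 17 of 62 libraries. The largest count was 15, in HH collection 5 replicate 3, which is 1.29 CPM. The pooled level was 0.0988 CPM for HL, 0.148 CPM for LH and 0.208 CPM for HH, whose value owed 15 of its 24 counts to that 1 library. In HL, 7 of the 12 counts came from 1 library, collection 4 replicate 2 (1.28 CPM). For a library at 0, 3 counts as an upper limit correspond to 0.307 to 1.40 CPM, and to 28.6 CPM in the shallowest library, so a level of Pappa2 below these values was not detectable at this depth.

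Among the inhibitors, Stc2 in HH was higher at the end of the day than at its start. In HH it was 74.5, 66.3, 67.9 and 63.5 CPM at 0 h and 156, 131, 124 and 166 CPM at 20 h. The ranges did not overlap, and the means were 68.0 ± 4.6 (SD, n = 4) and 144 ± 20 CPM (SD, n = 4), a ratio of 2.12. Between these, the HH means were 92.3, 96.4, 97.8 and 121 CPM at 4, 8, 12 and 16 h, so that each collection lay above the one before. The fitted cosine in HH had a log2 amplitude of 0.38 ± 0.11 (SE) and a peak at 16.4 h.

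In HL and LH the course of Stc2 depended on how the libraries were named. By titles, Stc2 in HL was 62.9 ± 8.8 CPM (SD, n = 3) at 0 h, 110 ± 19 CPM (SD, n = 4) at 4 h and 62.9 ± 10 CPM (SD, n = 3) at 8 h, with no steady direction afterwards (log2 amplitude 0.11 ± 0.11, SE). In LH by titles it was 130 ± 15 CPM (SD, n = 3) at 0 h, 88.5 ± 18 CPM (SD, n = 4) at 8 h and 141 ± 19 CPM (SD, n = 4) at 20 h. By library numbers the mean was lowest at 0 h and highest at 20 h in all 3 treatments. The HL means were then 62.9, 86.7, 86.3, 109, 122 and 145 CPM from 0 to 20 h, and the LH means 66.5, 73.2, 84.4, 97.9, 106 (1 library) and 116 CPM. The libraries of 0 h and 20 h did not overlap in HL, and in LH they overlapped only by the library with 609 CPM of Stc1, without which the mean at 20 h was 130 CPM. The cosine by library numbers had log2 amplitudes (SE) of 0.44 ± 0.10 for HL, 0.46 ± 0.10 for LH and 0.38 ± 0.09 for HH, with peaks at 16.3, 15.9 and 16.4 h. Leaving out the libraries that stood apart gave 0.44, 0.48 and 0.37.

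**Figure D2:**
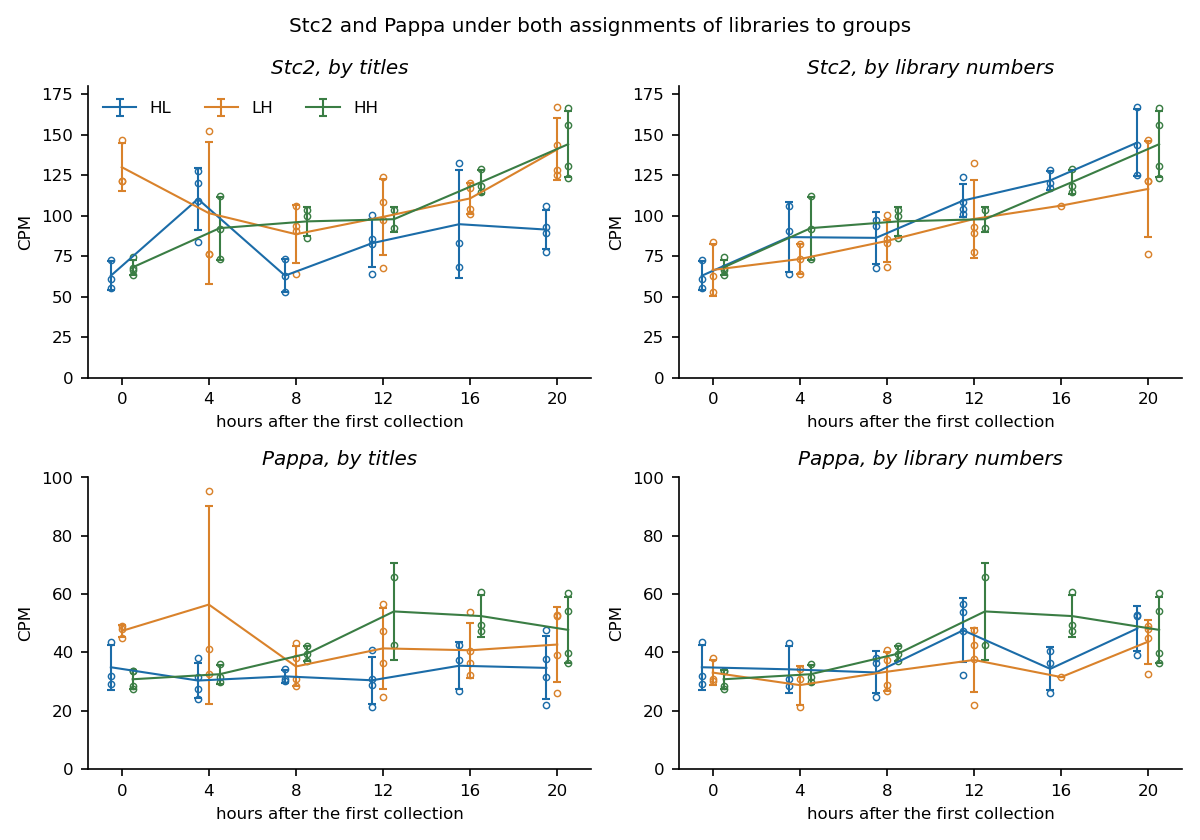
CPM of Stc2 (top) and Pappa (bottom) in each library by hours after the first collection, with libraries grouped by titles (left) or by library numbers (right). Lines join group means and bars are 1 SD. By library numbers Stc2 starts between 62.9 and 68.0 CPM and ends between 116 and 145 CPM in all 3 treatments, while by titles HL and LH start at 62.9 and 130 CPM.

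By library numbers the means of Pappa in HL were 34.9 CPM at 0 h (29.2 to 43.6) and 48.2 CPM at 20 h (39.1 to 53.0). In LH they were 33.1 CPM (30.2 to 38.1) and 43.7 CPM (32.8 to 49.0), and the libraries of 0 h and 20 h overlapped in both treatments. In LH the overlap came from the library with 609 CPM of Stc1, without which 20 h ran from 44.8 to 49.0 CPM. In HL the libraries of 20 h did not overlap those of the lowest mean, at 8 h (24.9 to 38.1 CPM). The cosine of Pappa by library numbers had log2 amplitudes of 0.22 ± 0.10 in HL and 0.32 ± 0.10 in LH (SE), with peaks at 16.4 and 16.8 h, and 0.36 ± 0.10 in LH without the libraries that stood apart, beside 0.15 ± 0.09 in both by titles. The HL collections of 12 h (47.6 ± 11 CPM, SD, n = 4) and 16 h (34.4 ± 7.4 CPM, SD, n = 3) overlapped.

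Stc1, the other inhibitor, differed from the rest by single libraries. It was at 609 CPM in LH collection 2 replicate 1, at 406 CPM in HL collection 2 replicate 3, at 281.7 CPM in HL collection 5 replicate 2 and at 240.7 CPM in HL collection 6 replicate 3. It was 153 and 119 CPM in LH collection 6 replicate 1 and LH collection 5 replicate 2, while the median library had 32.7 CPM. In HL collection 2 the other 3 libraries had 28.1 to 57.1 CPM, and in HL collection 6 they had 20.6 to 25.2 CPM. The 4 highest libraries all stood apart, and their chaperone sums were 3237 to 7592 CPM against a median of 1362 CPM. In the same 4 libraries Atf4, a transcription factor of the integrated stress response, was at 2000 to 3410 CPM against a median of 570 CPM over all libraries, and Cirbp, a cold-inducible RNA-binding protein, was at 4.62 to 14.3 CPM against 42.9 CPM. The collagen gene Col1a1 was at 1753 to 4614 CPM against 7002 CPM, which overlaps the 3400 to 10319 CPM of libraries that did not stand apart. The sum of the fibroblast markers was below 17334 CPM only in libraries that stood apart. Over the 61 libraries of at least 1000000 counts, log2 Stc1 and the log2 chaperone sum had r = 0.95, and r = 0.89 in the 56 that did not stand apart, which is a description. The chaperone list and these 3 genes were chosen after the data were seen, and their part in the level of Stc1 was not tested.

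By library numbers the high values of Stc1 that have a number fell into replicate 4. The 5 libraries with no listed number are left out of this count, and 4 of them were over 50 CPM, among them the second highest (406 CPM). Replicate 4 then had the highest Stc1 in 14 of the 14 groups with a replicate 4 and at least 3 libraries, against 6 of 16 by titles. Of 9183 genes with a median of at least 5 CPM, 44 were highest and 16 were lowest in replicate 4 in all 14 groups by numbers, and none in any replicate number by titles. In HH, where both names are the same, Stc1 in replicate 4 was 32.3, 51.9, 33.3, 59.1 and 89.9 CPM at 0, 4, 8, 12 and 20 h, beside at most 26.8, 29.0, 31.9, 24.7 and 48.4 CPM in the other replicates. The ratio of replicate 4 to the mean of the others over all groups was 1.09 to 15.8. Igfbp4 was lowest in replicate 4 in 12 of 14 groups, Stc2 in 9 and Pappa in 8. This pattern was noticed after the values were seen and is given without a test.

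**Figure D3:**
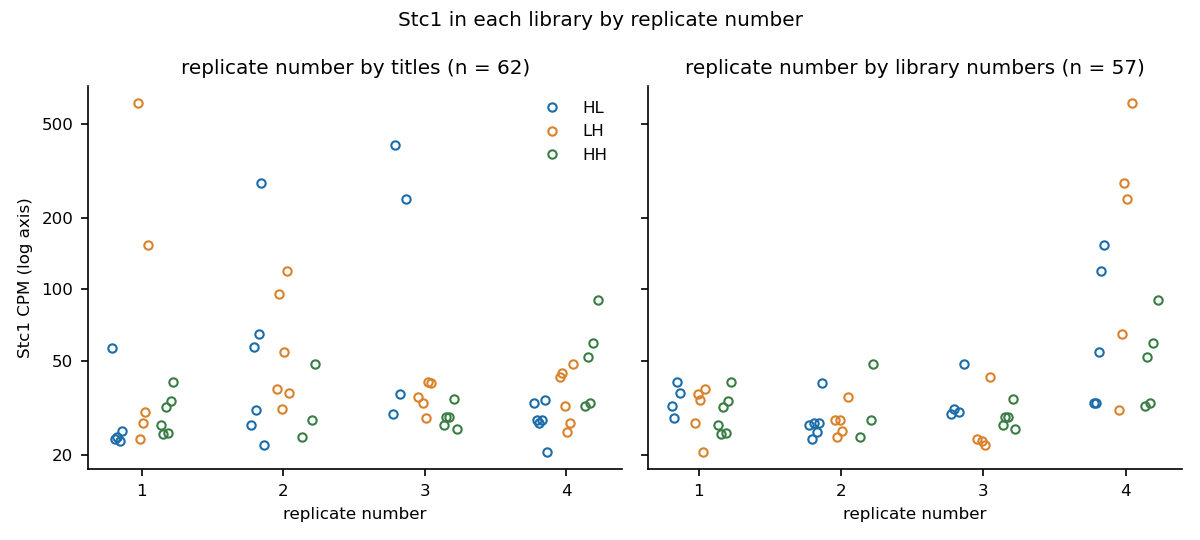
CPM of Stc1 (log axis) in each library by replicate number, taken from titles (left, n = 62) or from library numbers (right, n = 57), with circles coloured by the treatment each naming gives. By titles the libraries over 100 CPM carry replicate numbers 1, 2 and 3, and by library numbers all those drawn over 50 CPM carry number 4. The 5 libraries with no listed number, 4 of them over 50 CPM, are drawn only by titles.

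Among the substrates, Igfbp4 was the most even. Without the libraries that stood apart its coefficient of variation was 13.3%, against 18.3% with them. In HH it was 540 to 573 CPM at 16 h (mean 556 ± 16, SD, n = 3), above every other HH library, which reached at most 526 CPM. It was 406 ± 18 CPM (SD, n = 2) at 12 h and 444 ± 64 CPM (SD, n = 4) at 20 h, so that the high value stood at 1 collection. The lowest libraries of Igfbp4 were those in which Stc1 was highest, from 127 to 316 CPM, and no library outside those that stood apart was below 362 CPM. The highest, 660 CPM, was LH collection 2 replicate 4 with 2136819 counts. That library also had the highest sums of adipocyte markers (48.2 CPM, against a median of 6.60 CPM) and of muscle markers (1.87 CPM).

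Igfbp5, the second substrate, had the lowest counts of the 5 genes tested. In HH it was highest at 4 h, 10.2 ± 2.7 CPM (SD, n = 3), and lowest at 16 h, 5.69 ± 1.2 CPM (SD, n = 3). The ranges of 8.09 to 13.3 and 4.27 to 6.51 CPM did not overlap, but 1 library at 20 h, HH collection 6 replicate 1, had 13.2 CPM. The cosine in HH had a log2 amplitude of 0.33 ± 0.21 (SE) with a peak at 4.4 h. By library numbers HL had a similar order, with 12.8 ± 3.9 CPM (SD, n = 3) at 4 h and 3.72 ± 2.0 CPM (SD, n = 3) at 20 h. The cosine gave a log2 amplitude of 0.76 ± 0.22 (SE) with a peak at 5.4 h there, and 0.11 ± 0.20 in HL by titles. In LH the amplitude was 0.55 ± 0.21 by titles, peaking at 8.8 h, and 0.18 ± 0.20 by library numbers. At 4 h, where Igfbp5 was highest in HH, Pappa (32.5 CPM) and Stc2 (92.3 CPM) had their second lowest means.

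Levels over all collections were compared between treatments with edgeR, with collection as a term. By titles, log2 Pappa was 0.29 ± 0.10 (SE) higher in LH than in HL and 0.29 ± 0.11 higher in HH than in HL, and LH and HH differed by -0.0020 ± 0.11. Its median was 31.5 CPM in HL, where libraries ran from 21.4 to 47.7 CPM. The median was 40.8 CPM in LH (24.9 to 95.3) and 39.4 CPM in HH (27.5 to 65.7), and all 3 ranges overlapped. Stc2 was 0.38 ± 0.09 higher in LH and 0.22 ± 0.10 higher in HH than in HL, with medians of 83.3 CPM in HL (52.6 to 132), 113 CPM in LH (63.6 to 167) and 103 CPM in HH (63.5 to 166). Again the ranges overlapped. For Igfbp4 the differences were 0.09 ± 0.08 (LH-HL) and 0.12 ± 0.08 (HH-HL), and for Igfbp5 -0.23 ± 0.21 and -0.18 ± 0.21. Stc1 differed by -0.06 ± 0.32 and -0.72 ± 0.34, and without the libraries that stood apart by 0.41 ± 0.19 and 0.11 ± 0.19.

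With thresholds of P below 0.01 over treatments and below 0.05 for the comparison, Pappa and Stc2 were past both in LH-HL and in HH-HL. That is 2 of the 5 genes tested, beside 1.16% and 1.2% of all genes, from which nothing is read because the genes were chosen on these values. In LH-HH 0 of the 5 were past both, beside 0.91% of all genes, and after Benjamini-Hochberg adjustment over all genes edgeR called 0 of the 13292 genes in each comparison, as did DESeq2, while 756, 985 and 695 had an unadjusted p below 0.05 in LH-HL, HH-HL and LH-HH. Of the genes past both thresholds, 57 were higher and 97 lower in LH-HL, 61 and 99 in HH-HL, and 57 and 64 in LH-HH. With library totals in place of TMM scaling the split was 81 and 45, 106 and 40, and 43 and 76. The calls of Pappa were kept in 10 of 23 alternatives by titles in each comparison, and were lost without the shallowest library and with the second run alone, with log2 differences of 0.22 to 0.29. Those of Stc2 were kept in 21 of 23 in LH-HL and in 17 of 23 in HH-HL, and both were lost with no term for collection. Without the libraries that stood apart, Pappa was past neither comparison, at 0.20 ± 0.10 (LH-HL) and 0.25 ± 0.11 (HH-HL), and Stc2 was past all 3.

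By library numbers these differences did not hold. Pappa was then -0.09 ± 0.09 in LH-HL and 0.10 ± 0.09 in HH-HL, and Stc2 was -0.10 ± 0.07 and 0.03 ± 0.06. Stc1 was instead 0.91 ± 0.37 higher in LH than in HL and 1.17 ± 0.37 higher than in HH, past both thresholds. With the replicate number as a block it was 0.47 ± 0.22 and 0.65 ± 0.23, not past them, and without the libraries that stood apart it was -0.39 ± 0.20 and -0.17 ± 0.19. The level of Stc2 in HL and LH thus has no direction that holds under both names, and that of Stc1 rests on the libraries that stood apart.

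**Figure D4:**
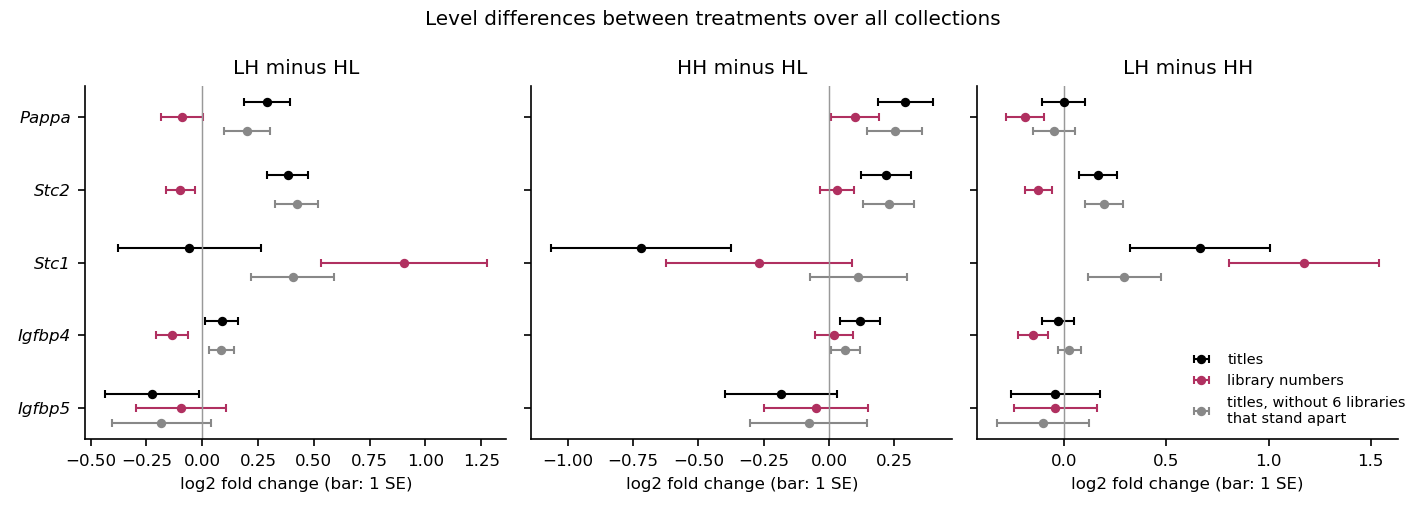
Log2 fold changes (edgeR) of 5 genes for LH minus HL, HH minus HL and LH minus HH over all collections, with bars of 1 SE, by titles (black), by library numbers (red) and by titles without 6 libraries that stood apart (grey). Pappa and Stc2 lie at 0.29 and 0.38 for LH minus HL by titles and at -0.09 and -0.10 by library numbers, and Stc1 has the widest bars.

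For rhythms, JTK_CYCLE with a period of 24 h at P below 0.01 called 62 genes in HL (0.466% of those tested), 118 in LH (0.888%) and 165 in HH (1.24%) by titles. Of the 5 genes, Pappa was among those called in HH and Stc2 among those called in LH, and none in HL. The shares of all genes are beside them, and nothing is read from these calls for the reason given above. The edgeR cosine at P below 0.01 called 1.12%, 3.27% and 2.87% of all genes in HL, LH and HH. Of the 5 genes it called none in HL, Stc1 and Stc2 in LH and Pappa and Stc2 in HH by titles. Other settings also added calls. By library numbers Stc2 (log2 amplitude 0.44) and Igfbp5 (0.76) were called in HL. Without the libraries that stood apart, Igfbp4 was called in HH by titles (0.18). By library numbers without those libraries, Pappa in LH (0.36) and Stc1 in HL (0.64) were called. Igfbp5 in LH was called by titles without LH replicate 4 (0.68). The call of Stc1 in LH was kept in 7 of 22 alternatives and lost by library numbers, and its log2 amplitude of 1.14 became 0.36 without LH replicate 1. By library numbers that amplitude was 1.04, with a peak at 16.1 h against 1.8 h by titles. The call of Stc2 in HH was kept in 19 of 22 and lost without HH replicate 1, 2 or 3 (0.39, 0.36 and 0.37). That of Stc2 in LH was kept in 19 of 22 and lost without LH replicate 1, 2 or 3 (0.34, 0.30 and 0.30). That of Pappa in HH was kept in 22 of 22. The 22 include settings without a replicate of another treatment and, for HH, the plain regrouping by library numbers. These leave the fitted libraries as they are, so the counts say little on how well a call held. A call was also counted whatever its peak. Stc2 in LH peaked at 21.3 h by titles (amplitude 0.33) and at 15.9 h by library numbers (0.46). As with JTK_CYCLE, nothing is read from these calls. The cosine of Stc2 in HH peaked at 16.4 h although the highest mean stood at 20 h.

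How libraries of the same treatment and collection varied together in these genes was described by the deviations of log2(CPM + 1) from the group mean, for the 10 pairs among 5 genes. The genes were chosen with results of these libraries known, so the correlations are a description of these libraries and are given with no p. Between Stc1 and Igfbp4 the Pearson r was -0.74 and the Spearman rho -0.57 (62 libraries). Leaving out the 2 libraries farthest from the median of Stc1 gave r = -0.72. Between Stc1 and Pappa they were -0.53 and -0.42. For this pair r was -0.54 without the 2 libraries farthest from the median of Pappa, not of Stc1. With TMM scaling this second r was -0.41, and it was -0.52 without HL replicate 2, -0.47 without HL replicate 3 and -0.42 without LH replicate 1.

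Without the libraries that stood apart both correlations of Stc1 were closer to 0. Stc1 with Igfbp4 then had r = -0.40 and rho = -0.27, and Pappa with Stc1 had r = -0.51 and rho = -0.36 (55 libraries). Leaving out the 2 of those farthest in Stc1 gave r = -0.27 for Stc1 with Igfbp4. Leaving out the 2 farthest in Pappa gave -0.37 for Pappa with Stc1. By library numbers r was -0.81 and -0.60. Within the first sequencing run they were -0.74 and -0.54, and within the second run -0.67 and 0.53, or -0.72 and -0.54 without libraries under 1000000 counts. Of 9271 genes, 4.3% had an r with Stc1 at least as negative as that of Igfbp4 and 16.1% one at least as negative as that of Pappa, and without the libraries that stood apart these shares were 12.2% and 6.23%.

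Pappa and Igfbp4 had r = 0.46 and rho = 0.51, and Stc2 and Igfbp4 had r = 0.50 and rho = 0.38. Without the 2 libraries farthest in Pappa the first r was 0.43, and without the 2 farthest in Stc2 the second was 0.35. By library numbers they were 0.52 and 0.55. With Igfbp4, 25.8% of 9271 genes had an r at least as high as that of Pappa, and 22.5% one at least as high as that of Stc2. With Pappa and with Stc2, 12.2% and 1.35% of genes had an r at least as high as that of Igfbp4. Stc1 with Igfbp5 had r = 0.36. The other 5 pairs had r between -0.35 and 0.09. Protease and inhibitor, Pappa and Stc2, had r = 0.09.

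**Figure D5:**
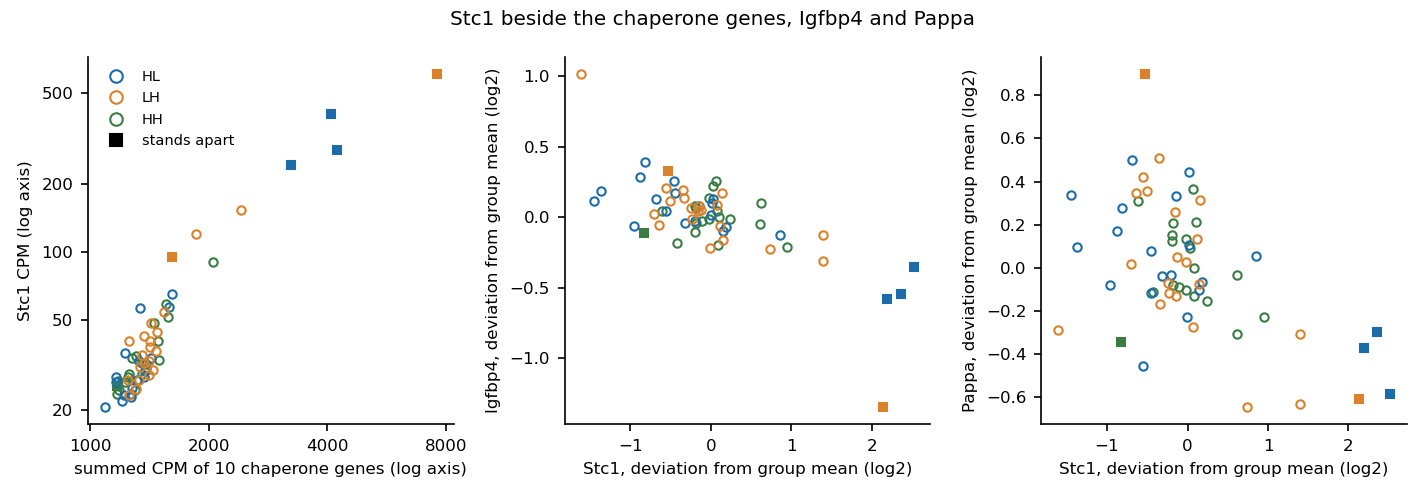
Left, CPM of Stc1 against the summed CPM of 10 chaperone genes in each library (log axes). Middle and right, deviations of log2(CPM + 1) from the mean of the own treatment and collection for Igfbp4 and Pappa against Stc1, with filled squares for libraries that stood apart. Igfbp4 (r = -0.74) and Pappa (r = -0.53) were lower where Stc1 was higher, and the lowest Igfbp4 is in the library with 609 CPM of Stc1.

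The other genes of the axis were taken from a list of 20, of which 16 could be tested. The list held ligands, receptors, adaptors of the receptors, binding proteins and proteases, among others. The most abundant were Igf1r, the receptor (median 381 CPM), Igf1, its ligand (304 CPM), and Htra1, a secreted serine protease that also cuts binding proteins (191 CPM), while Igf2 had a median of 0.122 CPM. Pappa, at most 95.3 CPM, was below the lowest library of Igf1 (155 CPM). The median of Igfbp4 (433 CPM) was above those of Igf1r and Igf1, but its range of 127 to 660 CPM overlapped theirs (143 to 534 and 155 to 577 CPM). None of the 16 had an adjusted p below 0.05 in any comparison by edgeR or DESeq2, and by edgeR 5, 3 and 2 had an unadjusted p below 0.05 in LH-HL, HH-HL and LH-HH, beside 756, 985 and 695 of all 13292 genes. Past both unadjusted thresholds were 3, 2 and 1 of the 16, beside 1.16%, 1.2% and 0.91% of all genes. Past both unadjusted thresholds by titles were Irs1, an adaptor of the insulin and IGF receptors, and the binding proteins Igfbp3 and Igfbp6. Log2 Irs1 was 0.31 ± 0.12 (SE) in LH-HL (adjusted p = 0.732, edgeR) and 0.37 ± 0.13 in HH-HL (adjusted p = 0.486, edgeR). Igfbp6 was -0.31 ± 0.09 and -0.32 ± 0.09 (adjusted p = 0.472 and 0.364, edgeR). For Igfbp3, with a median of only 2.37 CPM, the differences were -0.94 ± 0.25 in LH-HL (adjusted p = 0.472, edgeR) and -0.62 ± 0.27 in LH-HH (adjusted p = 0.883, edgeR). By library numbers none of the 16 was past both thresholds.

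The genes whose log2 CPM ran most like each of the 5 over 61 libraries were named from 9263 genes, as a description in which all libraries share depth and treatment. For Pappa these were Timp3, an inhibitor of metalloproteinases (r = 0.73), Plce1 (0.71) and Ogn, a small matrix proteoglycan (0.71). For Stc2 they were Serpinb6b (0.78), Serpinb9 (0.76) and Greb1 (0.74). For Stc1 they were Ereg, an EGF receptor ligand (0.95), Ier3 (0.95) and Cryab, a small heat shock protein (0.95), with 0.85, 0.84 and 0.84 in the 56 libraries that did not stand apart. For Igfbp4 they were Il17rc (0.88), Snapin (0.86) and Rras (0.86), with 0.63, 0.67 and 0.64 in those 56 libraries. For Igfbp5 the closest were Atox1 (0.57), Cpsf2 (0.56) and Prelid3b (0.56). Over the same 61 libraries Pappa had r = 0.47 with Stc2, 0.42 with Igfbp4, -0.27 with Igfbp5 and -0.34 with Stc1 (-0.11 in the 56 libraries), so that none of the 5 genes was among the 3 nearest neighbours of another.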

How the data were processed

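RNA of Per2::Luc fibroblasts under HL, LH and HH was measured by 3′DGE in 62 libraries. A sequencing service made the reads, and the authors deposited raw counts per Ensembl gene, not normalized, in 121 runs (59 libraries with 2 runs). The submitters' processing notes list bcl2fastq, STAR 2.6.0a, HTSeq 0.9.1 and mm10, while the sources used here give neither the annotation release nor the use of strand. Reads on no feature (18.4% to 29.1% per run) were left out. Runs were summed and 30934 identifiers matched to a symbol. Libraries held 104912 to 11619095 counts, and the shallowest does not resolve genes of a few CPM.

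Genes with at least 1 CPM in 3 libraries were tested with edgeR 4.0.16 (R 4.3.3, quasi-likelihood test, TMM, treatment and collection as terms, Benjamini-Hochberg adjustment), with DESeq2 1.42.0 as an alternative. Rhythms were tested with JTK_CYCLE, rewritten in Python 3.11.15 with scipy 1.17.1, and described with a 24 h cosine in edgeR. Correlations were taken on log2(CPM + 1), as deviations from the mean of each treatment and collection. Scripts were tested on simulated data. Groups were taken from titles, and library numbers, single runs, other filters, scalings, left-out replicates and a replicate block were alternatives. Members and lists were chosen with earlier results of these data known, and the chaperone list, the rule for libraries that stood apart and the alternatives that use it were added after the data were seen. Named beside the 6 genes were list genes past a threshold, the 3 most abundant, and the 3 nearest neighbours of each gene. Gene positions are from an annotation of GRCm38. The 6 promoters sought gave 4 entries.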

Additional observations from a re-analysis of the deposited data

Results flagged for a closer look

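In groups of 4 libraries, a value was marked when its gap to the nearest other library, divided by the range of the group, was above Dixon's 95% critical value. This was applied to 9 groups and 5 genes, 45 in all, of which chance marks about 1 in 20, and 5 were marked, all of them Stc1.

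Stc1 was 406 CPM in HL collection 2 replicate 3, against 57.1 CPM in the nearest library of its group. It was 240.7 CPM in HL collection 6 replicate 3, against 25.2 CPM in the nearest. In LH it was 54.2 CPM in collection 4 replicate 2, 119 CPM in collection 5 replicate 2 and 153 CPM in collection 6 replicate 1, against 28.6, 40.5 and 48.6 CPM in the nearest libraries of these groups. The first pair stood apart, with chaperone sums of 4088 and 3237 CPM, and the last 3 libraries, with sums of 1537, 1854 and 2413 CPM, did not. By library numbers 4 of these 5 libraries are named replicate 4 of another group, and the fifth is not listed.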

How the results depend on the processing

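Alternatives that rest on the libraries that stood apart, and those that join library numbers with another choice, were added after seeing the data. A level difference was counted as reversed when a called value changed sign, and as moved when it shifted by more than the within-group SD of the gene, which is 0.98 for Stc1. Of 390 values, 6 reversed and 3 moved, all by library numbers: Pappa LH-HL to -0.091, Stc2 LH-HL to -0.097 and Stc2 LH-HH to -0.13. These were -0.040, -0.075 and -0.11 when the libraries that stood apart were also left out, and -0.088, -0.10 and -0.13 with the replicate block. Below these limits, Stc1 LH-HL went from -0.06 to 0.91 and Stc1 LH-HH from 0.66 to 1.17 by library numbers, both then past the thresholds, but not with the replicate block (0.47 and 0.65), and Stc1 LH-HL was -0.56 to 0.46 without a replicate. The log2 amplitude of Stc2 in HL became 0.44, 0.44 and 0.42 under the same 3 settings, and that of Stc1 in LH went from 1.14 to 0.16 by library numbers without the libraries that stood apart (1.04 by library numbers, 0.61 by titles without those, and 0.36 to 1.69 without a replicate). The cause was not tested.

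The share of genes past both thresholds in LH-HL, HH-HL and LH-HH (1.16%, 1.2% and 0.91%) became 1.87%, 1.92% and 1.62% with no filter on low counts (387, 399 and 335 genes), and 0% with Benjamini-Hochberg at 0.05. By library numbers it was 0.568% in HH-HL and 1.63% in LH-HH, with the block added 1.91% in LH-HL and 2.34% in LH-HH, and 1.58% in LH-HH without libraries that stood apart. By titles it was 1.77% in LH-HL without those. Without a replicate the shares were 0.665% to 1.64%, 0.689% to 2.43% and 0.538% to 2.06%. HL replicate 2 (0.712% in LH-HL, 0.689% in HH-HL), HL replicate 4 (0.727% in LH-HL), LH replicates 3 and 4 (0.665% and 0.674% in LH-HL), HH replicate 1 (0.697% in HH-HL, 0.538% in LH-HH) and HH replicate 4 (2.43% and 2.06%) moved them by over 1.5 times.

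Rhythmic genes in HL, LH and HH (62, 118 and 165) became 140 and 179 in HL and LH by library numbers, 37 in HL with the second run alone, 149, 434 and 382 with an edgeR cosine, and 0, 0 and 3 after Benjamini-Hochberg. Without a replicate they were 30 to 79, 68 to 107 and 54 to 117. HL replicates 1 and 2 (30 and 41), LH replicates 2 and 3 (68 and 76) and HH replicates 1, 2 and 3 (84, 96 and 54) moved them by over 1.5 times.

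For the correlations (Pearson r), Pappa with Stc1 was 0.53 with the second run alone, in which 1 library had 10069 counts and 0 of both genes, and -0.54 without libraries under 1000000 counts. With TMM scaling it was -0.41, and -0.63 to -0.42 without a replicate. Stc1 with Igfbp4 was -0.67 with the second run alone. Pappa with Igfbp4 was 0.52 by library numbers, and its values under other settings were 0.43 without libraries under 1000000 counts, 0.43 by titles and 0.41 by numbers without libraries that stood apart, 0.33 by numbers with the block, 0.59 in the second run without libraries under 1000000 counts, and 0.34 to 0.68 without a replicate. Stc2 with Igfbp4 was 0.55 by numbers, 0.56 with the first run alone, 0.56 without libraries under 1000000 counts and 0.42 without libraries that stood apart. Pappa with Igfbp5 was -0.44 by numbers without libraries that stood apart, and Igfbp4 with Igfbp5 -0.555 with the second run alone. Genes of the axis past both thresholds (3, 2 and 1) were 0, 0 and 0 by library numbers.

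Replicate numbers were not taken to pair the libraries, since neither the labels nor every pair of groups tied them. Libraries with the same number correlated over 0.1 in 14 of 53 pairs of groups by titles and in 32 of 43 by library numbers (13 of 13 for number 4). With a replicate block by titles the counts were 138, 130 and 99, Pappa was past the thresholds in neither LH-HL (0.29) nor HH-HL (0.29), and 1 axis gene in HH-HL was past both thresholds.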
